A study of Mus musculus with 6 samples.

Results

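The cells described here are immature neutrophils and granulocyte precursors of mouse lymph nodes, picked out of single-cell RNA libraries by the granule transcripts they carried. They were chosen on measured values. Kept cells had at least 500 UMIs (unique molecular identifiers, each standing for 1 captured transcript) and 300 detected genes, with no more than 10% of UMIs mitochondrial. A member was a kept cell with at least 5 UMIs summed over Ngp, Camp, Ltf, Elane, Prtn3 and Mpo, with at least 2 of these 6 genes detected, at least 1 UMI of S100a8, none of Cd79a, and either no Retnlg or at least 3 UMIs of Ngp. The rule found 290 members among the 24721 kept cells of the CD11b/CD11c-enriched fraction, out of 53259 kept cells in both fractions of the series. Levels of the genes in the rule, and every contrast between members and other cells, are therefore given as a description.

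The nodes were inguinal and axillary, from C57Bl/6 mice that carried YUMMER1.7 melanoma, that carried YUMM1.7 melanoma, or that were tumour-free (naive). YUMM1.7 is a transplantable mouse melanoma line. Ultraviolet irradiation of that line gave YUMMER1.7, which carries more mutations and is better recognised by the immune system. Nodes of several mice were digested with collagenase, pooled into 1 suspension per arm and enriched with magnetic beads against CD11b and CD11c before droplet capture. With 1 library per arm there is no spread between animals and no test. Every interval below is a 95% interval for counting error only, and both comparisons with naive nodes use the same naive library.

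Neutrophils mature in the bone marrow and make their granule proteins in a fixed order. Promyelocytes make the primary (azurophil) granule proteins, which include elastase (Elane), proteinase 3 (Prtn3) and myeloperoxidase (Mpo). Myelocytes and metamyelocytes make the secondary (specific) granule proteins, which include lactoferrin (Ltf), cathelicidin (Camp) and neutrophilic granule protein (Ngp), and band and mature cells make gelatinase (Mmp9) and resistin-like gamma (Retnlg). Division stops after the myelocyte stage. The primary granule proteases are also transcribed in the progenitors that neutrophils share with monocytes, so their transcripts alone do not fix the lineage.

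Members had a median of 13534 UMIs per cell in the YUMMER1.7 library, 9559 in the YUMM1.7 library and 7613 in the naive library, against 10491, 9702 and 6953 UMIs in all kept cells of the same libraries. Summed over members, the libraries held 2684519, 338622 and 825660 UMIs, so the YUMM1.7 members give the least precise values. Kept cells of different libraries shared 5 to 25 barcodes, and no barcode was a member in more than 1 library. A UMI of Ngp was also found in 6.32%, 2.60% and 2.18% of B cells of the YUMMER1.7, YUMM1.7 and naive libraries, and one of Elane in 0.154%, 0.260% and 0%, at median depths of 5497, 5652 and 4372 UMIs. B cells here were kept cells with at least 3 UMIs of Cd79a and 1 of Ms4a1. In members a UMI of Ngp was found in 89.1%, 100% and 100% of cells. S100a8, of which the rule asks for 1 UMI, was found in 40.8%, 17.2% and 15.3% of B cells and in 59.6%, 22.9% and 20.4% of monocytes (median depths of 13641, 11155 and 9843 UMIs), so that condition was met outside neutrophils more often in the YUMMER1.7 library.

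Members made up 2.56% of kept cells in YUMMER1.7 nodes (174 of 6801, 95% Clopper-Pearson interval 2.20% to 2.96%). They made up 0.443% in YUMM1.7 nodes (33 of 7453, 0.305% to 0.621%) and 0.793% in naive nodes (83 of 10467, 0.632% to 0.982%). The share in YUMMER1.7 nodes was 3.23-fold that in naive nodes (2.47 to 4.24) and 5.78-fold that in YUMM1.7 nodes (3.97 to 8.66), while the share in YUMM1.7 nodes was 0.558-fold that in naive nodes (0.361 to 0.845). Under a narrower rule with Retnlg at 0 in every member, which keeps fewer cells, the log2 share ratios were 3.39 for YUMMER1.7 over naive, 5.22 for YUMMER1.7 over YUMM1.7 and -1.83 for YUMM1.7 over naive, against 1.69, 2.53 and -0.84 here. Retnlg was detected in 140 of 174 YUMMER1.7, 32 of 33 YUMM1.7 and 78 of 83 naive members, so the YUMM1.7 share under that rule rests on a single cell. None of the 23 YUMMER1.7 members with more primary than secondary granule UMIs had Retnlg. Bead selection sets which cells enter each library, so these are shares of the selected cells. Set against the sum of members and mature neutrophils, members were 30.9% in YUMMER1.7 nodes (27.1% to 34.9%), 10.7% in YUMM1.7 nodes (7.52% to 14.8%) and 12.5% in naive nodes (10.1% to 15.3%). On that base the YUMM1.7 and naive shares differed by less than counting error, with a log2 ratio of -0.22 (-0.85 to 0.38), and the YUMMER1.7 share was 2.47-fold the naive one (1.89 to 3.25). Without the 23 YUMMER1.7 members that had more primary than secondary granule UMIs and carried monocyte markers, the YUMMER1.7 share on this base was 28.0% (24.2% to 32.0%), a log2 ratio over naive of 1.16 (0.77 to 1.57). Mature neutrophils were defined as kept cells outside the rule with at least 10 UMIs each of S100a8 and S100a9, Retnlg or Cxcr2 detected, and no Cd79a.

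**Figure D1:**
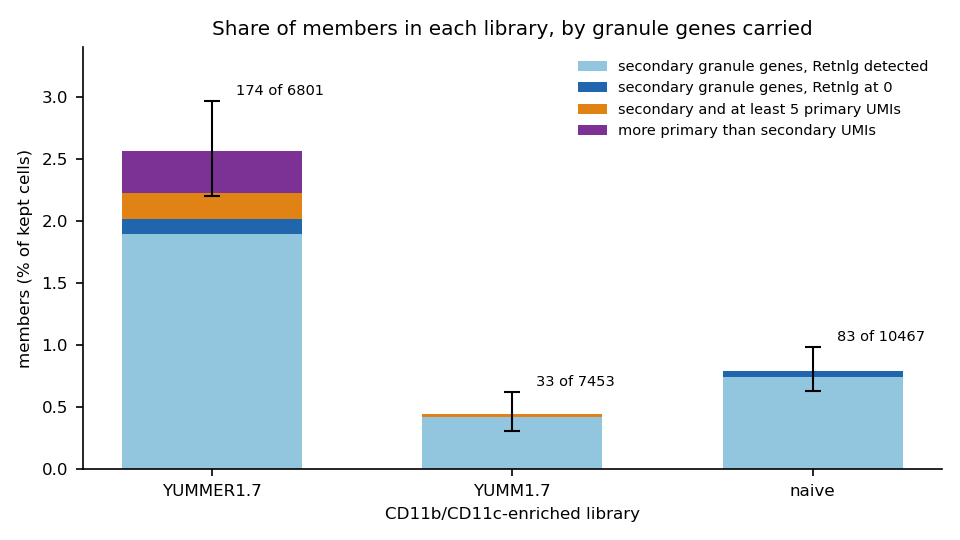
Members as a percentage of kept cells in each CD11b/CD11c-enriched library, with the bar divided by the granule transcripts carried and the 95% Clopper-Pearson interval of the total as the error bar. YUMMER1.7 nodes stand at 2.56% and hold all 23 members with more primary than secondary granule UMIs, while YUMM1.7 and naive nodes stand at 0.443% and 0.793%.

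The plot of member shares divides each bar into 4 strata by granule transcripts, with limits set after the values were seen. In 129 YUMMER1.7, 31 YUMM1.7 and 78 naive members secondary granule UMIs (Ngp, Camp and Ltf) equalled or outnumbered primary ones (Elane, Prtn3 and Mpo), fewer than 5 primary UMIs were present, and Retnlg was detected. In 8 YUMMER1.7, 0 YUMM1.7 and 5 naive members the same held but Retnlg was at 0. In 14 YUMMER1.7, 2 YUMM1.7 and 0 naive members secondary UMIs equalled or outnumbered primary ones and at least 5 primary UMIs were present. In 23 YUMMER1.7 members primary UMIs outnumbered secondary ones, which no YUMM1.7 or naive member showed.

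Most UMIs of the 3 primary granule genes of the rule thus lay in YUMMER1.7 members, which were also the most numerous. Members with at least 5 primary UMIs beside as many or more secondary ones were 8.05% of YUMMER1.7 members (4.47% to 13.1%). They were 6.06% of YUMM1.7 members (0.743% to 20.2%) and 0% of naive members (upper bound 4.35%), so the tumour arms overlap on that share. Elane had 944 UMIs in 32 of 174 YUMMER1.7 members, 31 UMIs in 2 of 33 YUMM1.7 members and 0 UMIs in 83 naive members. In counts per 1000000 UMIs (CPM) of the summed members this was 352, 91.5 and 0, and Elane was at least 96.8-fold higher in YUMMER1.7 than in naive members, taking for naive the 3 UMIs over the group that a count of 0 allows (3.63 CPM). Prtn3 had 1224 UMIs in 55 YUMMER1.7 members, 24 in 2 YUMM1.7 members and 4 in 4 naive members, a log2 ratio of 6.56 over naive (5.20 to 8.43) in YUMMER1.7 members. Mpo had 85 UMIs in 8 YUMMER1.7 members and was at 0 in the other libraries. A single cell gave 30.8% of the Elane UMIs of the YUMMER1.7 members and 20.3% of the Prtn3 UMIs.

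Elane (10:79886247-79888215) and Prtn3 (10:79874476-79883174) are neighbours on mouse chromosome 10 by the GENCODE annotation, while Ngp (9:110419747-110423012), Camp (9:109847379-109849617) and Ltf (9:111019271-111042767) lie near each other on chromosome 9 (GRCm38). Since the members split by these 2 groups of genes, the 250 bases before the annotated start of 2 genes of each group are shown, from RefSeq on GRCm38.p6. Its starts differ from the GENCODE ends. The Prtn3 window lies inside the longer GENCODE gene, and the Elane, Ngp and Camp windows run partly into theirs. They are chr10:79886062-79886311 (plus strand) for Elane, chr10:79879417-79879666 (plus strand) for Prtn3, chr9:110419558-110419807 (plus strand) for Ngp and chr9:109849457-109849706 (minus strand) for Camp. Capitals mark matches on either strand to GAGGAAGT, a form of the site of PU.1 (Spi1), or to TTNNGNAA, a core of sites of C/EBP factors, and no match overlapped another.
Elane: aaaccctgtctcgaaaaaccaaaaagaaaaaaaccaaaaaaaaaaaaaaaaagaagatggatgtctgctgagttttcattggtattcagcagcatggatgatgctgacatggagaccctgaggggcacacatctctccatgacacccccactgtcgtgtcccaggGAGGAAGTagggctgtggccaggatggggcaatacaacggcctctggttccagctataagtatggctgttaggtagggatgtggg
Prtn3: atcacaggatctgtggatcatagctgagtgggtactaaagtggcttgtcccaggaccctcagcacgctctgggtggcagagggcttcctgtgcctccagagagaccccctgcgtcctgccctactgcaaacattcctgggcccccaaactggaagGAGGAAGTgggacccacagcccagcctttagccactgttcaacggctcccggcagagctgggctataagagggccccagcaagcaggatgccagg
Ngp: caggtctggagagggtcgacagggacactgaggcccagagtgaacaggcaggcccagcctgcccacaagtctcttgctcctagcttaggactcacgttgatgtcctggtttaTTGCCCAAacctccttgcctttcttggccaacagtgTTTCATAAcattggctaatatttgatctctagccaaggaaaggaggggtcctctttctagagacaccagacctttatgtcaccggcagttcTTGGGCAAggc
Camp: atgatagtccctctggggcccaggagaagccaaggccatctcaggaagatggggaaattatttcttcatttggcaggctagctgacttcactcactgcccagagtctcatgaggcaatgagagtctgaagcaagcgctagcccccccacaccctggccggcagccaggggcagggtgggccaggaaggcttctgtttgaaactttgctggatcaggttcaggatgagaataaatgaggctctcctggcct

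The letters GAGGAAGT occurred once before Elane, once before Prtn3 and once before Mpo, and not before Ngp, Camp or Ltf, in windows of 250 bases. The same letters occurred in 2.44% of 32851 promoter windows of that length. The letters TTNNGNAA occurred 3 times before Ngp and 2 times before Ltf, and not before Camp, Elane, Prtn3 or Mpo, against 36.8% of all windows. These are matches of letters and no binding was measured.

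**Figure D2:**
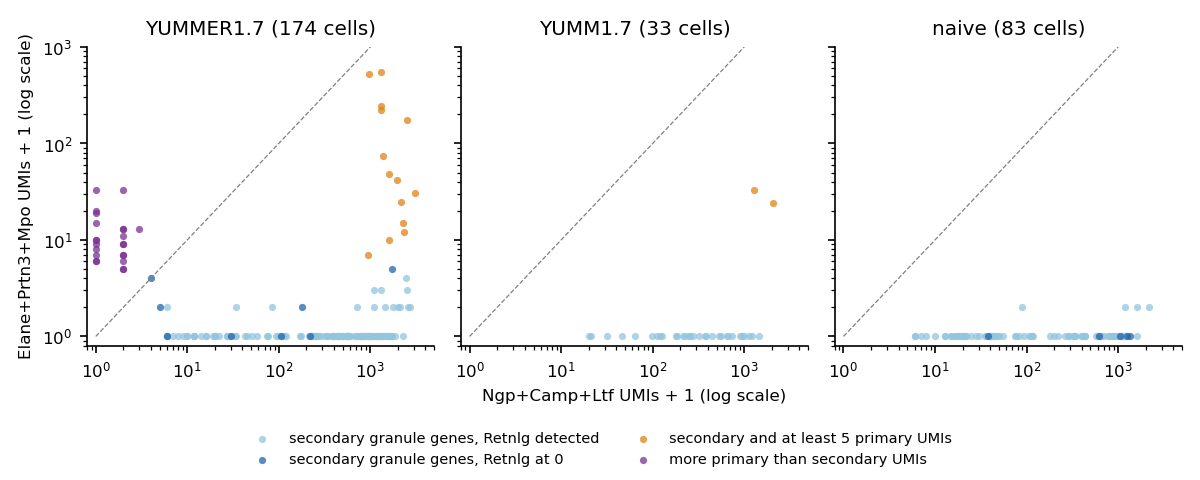
UMIs of Elane, Prtn3 and Mpo per cell (vertical axis) against UMIs of Ngp, Camp and Ltf (horizontal axis), both plus 1 on log scales, with 1 point per member and 1 panel per library, and a dashed line of equal values. The mixed cells of the YUMMER1.7 library lie at the right with 6 to 553 primary UMIs, apart from the 23 cells at the left edge with at most 2 secondary UMIs.

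The 14 mixed YUMMER1.7 members carried many secondary granule UMIs and from few to many primary ones, as the plot of UMIs per cell shows. Their secondary granule UMIs ran from 938 to 3110 per cell with a median of 1587, and their primary ones from 6 to 553 with a median of 44. In 5 of the 14 there were 174 to 553 primary UMIs, which made 1717 of the 1973 in all, and the other 9 cells had 6 to 74. Summed, they held 2408 CPM of Elane, 2726 CPM of Prtn3, 228 CPM of Mpo and 242 CPM of Ctsg (cathepsin G, another primary granule protease). These sums rest on few cells, since 4 cells gave 796 of the 886 Elane UMIs, and the median cell had 9.5 UMIs of Elane and 0.5 of Mpo. Elane was detected in 13 of the 14, Prtn3 in 14, Mpo in 7 and Ctsg in 5. Genes outside the rule that belong to the promyelocyte and myelocyte stages were also high: Fcnb (ficolin B) stood at 1101 CPM, Ms4a3 at 435 CPM and Cebpe, the C/EBP factor needed for secondary granules, at 568 CPM, each detected in all 14. The 2 mixed YUMM1.7 members had 32 and 23 primary granule UMIs, with 1338 CPM of Fcnb, 563 CPM of Ms4a3 and no Mpo.

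Late transcripts were scarce in the mixed YUMMER1.7 members. Ly6g, the surface antigen of maturing neutrophils, stood at 24.5 CPM, against 600 CPM in the 129 YUMMER1.7 members with Retnlg and few primary UMIs. Mmp8 and Mmp9, collagenase and gelatinase, were at 0 in the mixed cells, against 1190 and 1168 CPM. Retnlg, whose detection defines the 129 cells, stood at 190 CPM in the mixed cells. Monocyte markers were near 0, with at most 1 UMI per mixed cell over Csf1r, Ccr2, Ms4a6c, F13a1 and Ms4a4c.

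The 23 YUMMER1.7 members with more primary than secondary UMIs went against the name of granulocyte precursor and are called here primary-dominant cells, by their rule. They had 4 to 32 primary granule UMIs per cell with a median of 8, made up of 193 Prtn3 UMIs in 23 cells and 58 Elane UMIs in 19 cells, with no Mpo, no Ms4a3 and no Ly6g. S100a9, a very abundant neutrophil transcript, stood at 649 CPM, against 138270 CPM in the other YUMMER1.7 members. All 23 had at least 5 UMIs of the 5 monocyte markers, with 35 to 263 UMIs per cell and a median of 78. Their highest genes beside the other members, picked from these values, were Vcan (versican) at 1310 against 6.47 CPM, F13a1 (coagulation factor XIII A) at 1236 against 7.86 CPM and Fn1 (fibronectin) at 849 against 8.79 CPM. Ccr2, the chemokine receptor of classical monocytes, was detected in 23 of 23, at 684 against 17.1 CPM.

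Set beside the 1172 monocytes of the same library (kept cells with Ly6c2, Ccr2 and Csf1r that were neither members nor mature neutrophils), the primary-dominant cells were higher in Mki67, Stmn1, Lcn2 and Vcan and lower in class II antigen presentation genes. Mki67, a proliferation antigen, stood at 241 against 33.3 CPM, and Stmn1 (stathmin) at 259 against 40.4 CPM. Lcn2 (lipocalin 2) stood at 347 against 35.9 CPM and Vcan at 1310 against 295 CPM. S100a9, low beside the other members, was higher than in monocytes, at 649 against 104 CPM. Wfdc21 stood at 498 against 56.5 CPM and Mmp8 at 218 against 43.6 CPM. The monocyte marker F13a1 was higher too, at 1236 against 191 CPM. The class II gene H2-Ab1, at 272 against 2930 CPM, and Cd74, the class II invariant chain, at 797 against 6555 CPM, were lower. Prtn3 was also found outside the members, with at least 1 UMI in 254 of 1172 YUMMER1.7 monocytes (21.7%), in 4.35% of YUMM1.7 monocytes and in 1.89% of naive monocytes.

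Cells on both sides of the rule's threshold carried monocyte markers in the YUMMER1.7 library. Of the 14 members with a sum of 5 or 6 over the 6 genes, 10 had at least 5 monocyte marker UMIs, and of the 32 cells with a sum of 3 or 4 that met the rest of the rule, 25 did. In the naive library 3 members lay just inside and 3 cells just outside, and in the YUMM1.7 library 0 and 2. Under the Retnlg condition, 3 YUMMER1.7 and 6 naive members had Retnlg with 3 or 4 UMIs of Ngp, and 2 naive cells lay just outside with 1 or 2. Detection of Cd79a alone kept out 5 YUMMER1.7 and 3 naive cells.

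**Figure D3:**
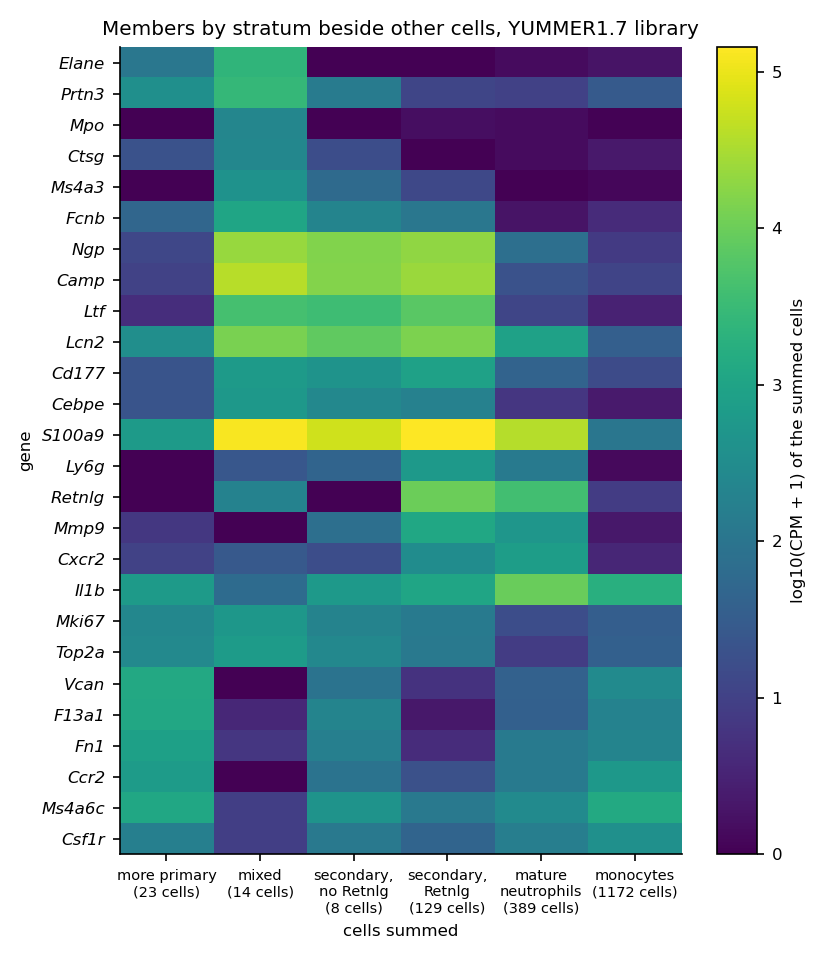
Levels of 26 genes in the YUMMER1.7 library as log10(CPM + 1) of summed cells, for the 4 strata of members and, to their right, for mature neutrophils and monocytes. The primary-dominant column is high for Vcan, F13a1, Fn1, Ccr2 and Ms4a6c and low for Ngp, Camp and S100a9, while the mixed column is high for Elane, Prtn3, Fcnb, Ms4a3, Camp and Top2a and at 0 for Mmp9.

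The map of levels by stratum also shows where proliferation genes lay. A cell was counted as mitotic when at least 2 of 10 mitosis genes (Mki67, Top2a, Birc5, Ube2c, Cdk1, Ccnb1, Ccnb2, Cenpf, Nusap1 and Tpx2) were detected after thinning to 2000 UMIs, which left out 5 YUMMER1.7, 1 YUMM1.7 and 2 naive members. By this measure 32 of 169 YUMMER1.7 members were mitotic (18.9%, 13.3% to 25.7%), 1 of 32 YUMM1.7 members (3.13%, 0.0791% to 16.2%) and 10 of 81 naive members (12.3%, 6.08% to 21.5%). The intervals overlap among all 3 libraries. Without thinning the shares were 28.2%, 9.09% and 14.5%. Among mature neutrophils 2 of 374 YUMMER1.7, 3 of 251 YUMM1.7 and 1 of 540 naive cells were mitotic, which sets the level of such calls in cells that have left the cycle.

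Within YUMMER1.7 members the mitotic share was highest in the mixed cells, at 11 of 14 (78.6%, 49.2% to 95.3%). It was 2 of 5 in members without Retnlg (5.27% to 85.3%), 5 of 23 in primary-dominant cells (21.7%, 7.46% to 43.7%) and 14 of 127 in members with Retnlg and few primary UMIs (6.16% to 17.8%). High shares were also seen outside mixed cells, at 3 of 4 naive members without Retnlg (19.4% to 99.4%). The stratum with Retnlg gave 0 of 30 in YUMM1.7 nodes, with an upper bound of 11.6%, and 7 of 77 in naive nodes (9.09%, 3.73% to 17.8%). Top2a, the topoisomerase of dividing cells, stood at 682 CPM in the mixed cells, 264 CPM in the primary-dominant cells and 118 CPM in the stratum with Retnlg.

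Secondary granule genes were abundant in the members of every library. Ngp stood at 16641 CPM in YUMMER1.7, 20014 in YUMM1.7 and 15385 in naive members, with 0 to 1106, 18 to 633 and 3 to 858 UMIs per cell. Camp stood at 21117, 23678 and 20355 CPM and Ltf at 5218, 5965 and 5416 CPM. The members ranged widely: 61 of 174 YUMMER1.7, 6 of 33 YUMM1.7 and 37 of 83 naive members had under 100 secondary granule UMIs. The YUMMER1.7 primary-dominant cells are among the first of these.

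Genes were compared between arms as the log2 ratio of CPM over summed members, for genes with at least 20 UMIs over both libraries, and called when at least 2-fold apart. Between YUMMER1.7 and naive members 10.1% of 8437 genes were at least 2-fold higher in YUMMER1.7 and 9.41% at least 2-fold lower. These were 853 and 794 genes, and under median-of-ratios scaling the split was 1239 higher and 518 lower. Between YUMM1.7 and naive members 1.49% of 5359 genes were at least 2-fold higher in YUMM1.7 and 18.9% at least 2-fold lower, and the median over all genes was -0.35. Between YUMMER1.7 and YUMM1.7 members 21.5% of 7952 genes were at least 2-fold higher in YUMMER1.7 and 3.16% at least 2-fold lower, with a median of 0.26. These ratios join strata that the arms hold in unequal parts, so they were also taken within the stratum with Retnlg and few primary UMIs (129, 31 and 78 cells), a choice made after the values were seen. Within it 4.11% and 14.7% of genes were called higher and lower for YUMMER1.7 over naive, 1.68% and 22.3% for YUMM1.7 over naive, and 13.1% and 3.67% for YUMMER1.7 over YUMM1.7, with all-gene medians of -0.33, -0.39 and 0.09. Of the 853 genes called higher in all YUMMER1.7 members over naive, 239 (28.0%) were also called within the stratum, and of the 794 called lower 549 (69.1%) were. The stratum itself was not alike in the arms: its median secondary granule count was 554 UMIs per cell in YUMMER1.7, 275 in YUMM1.7 and 116 in naive members, at median depths of 12032, 9243 and 7581 UMIs. Whether that difference moves the ratios was not tested. Under a narrower rule with Retnlg at 0 in every member, the YUMMER1.7 over naive medians of the primary granule, secondary granule, tertiary granule, cell cycle and inflammatory lists were -0.11, -2.01, 0.72, -0.65 and 0.51. Of the YUMMER1.7 members left by that rule 67.6% had more primary than secondary granule UMIs, and only 5 naive members were left.

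Among primary granule and promyelocyte genes outside the rule, 5 of 12 measured were at least 2-fold higher in YUMMER1.7 than naive members (41.7%, against 10.1% of all genes) and 0 lower, with a median log2 ratio of 0.81 against -0.06 over all genes. With Retnlg at 0 in every member that median was -0.11, and Ctsg stood at -0.11. Ctsg had 100 UMIs in YUMMER1.7, 1 in YUMM1.7 and 2 in naive members, a log2 ratio of 3.94 over naive (2.05 to 7.01) for YUMMER1.7. Ms4a3 had 185, 30 and 15 UMIs, at log2 ratios over naive of 1.92 (1.16 to 2.79) in YUMMER1.7 and 2.29 (1.35 to 3.29) in YUMM1.7 members. Plac8, a gene of myeloid progenitors and monocytes, stood at 1676 CPM in YUMMER1.7, 670 in YUMM1.7 and 575 in naive members. Within the stratum with Retnlg the list's median for YUMMER1.7 over naive was -0.09, and Ms4a3 stood at -0.57 (-1.62 to 0.51). There 0 of 8 genes were higher (against 4.11% of all genes) and 1 lower (12.5%, against 14.7%). For YUMM1.7 over naive the list's median was 0.28 in all members and 0.06 within the stratum. In all members 1 of 8 was higher and 1 lower (12.5% each, against 1.49% and 18.9% of all genes).

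Secondary granule genes outside the rule were mixed in YUMMER1.7 and mostly higher in YUMM1.7 members, with 8 and 12 of 15 above the naive level. Few passed 2-fold, namely 6.67% higher and 6.67% lower in YUMMER1.7, against 10.1% and 9.41% of all genes. The genes given next are those of the list with the most UMIs or the largest ratios. Lcn2, the iron-siderophore binding protein lipocalin 2, stood at 10817 CPM in YUMMER1.7 and 10242 in YUMM1.7 members, against 6821 CPM in naive members. Per cell it had 0 to 644 UMIs (median 130) in YUMMER1.7, 11 to 327 (median 91) in YUMM1.7 and 3 to 314 (median 39) in naive members, so the ranges overlap. Its log2 ratio over naive was 0.67 (0.62 to 0.71) in YUMMER1.7 and 0.59 (0.52 to 0.65) in YUMM1.7 members, and 1.04 and 0.64 within the stratum with Retnlg. Hp (haptoglobin) had log2 ratios of 0.94 and 0.88, or 1.11 and 0.84 within the stratum. Ifitm6, a member of a family of near-identical interferon-induced membrane protein genes whose reads may be shared, had 0.54 and 0.87, or 1.07 and 1.06 within the stratum. Serpinb1a, an inhibitor of neutrophil elastase, had 0.71 and 0.85, or 0.66 and 0.35 within the stratum.

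Over the list of 15 secondary granule genes the medians over naive were 0.22 in YUMMER1.7 (1 at least 2-fold higher, 1 lower) and 0.43 in YUMM1.7 members. In YUMM1.7 members 1 was higher (6.67%, against 1.49% of all genes) and 0 lower (against 18.9%). Within the stratum they were 0.37 (4 higher or 26.7%, against 4.11% of all genes, and 0 lower) and 0.36 (2 higher or 13.3%, against 1.68%, and 0 lower). Olfm4 (olfactomedin 4), carried by a subset of neutrophils, had 223 UMIs in 6 YUMMER1.7 members, 26 in 1 YUMM1.7 member and 0 in naive members, at least 22.9-fold higher in YUMMER1.7. Mmp8 went the other way in YUMMER1.7 members, at 810 CPM against 2215 CPM in YUMM1.7 and 1642 CPM in naive members, a log2 ratio over naive of -1.02 (-1.12 to -0.92), or -0.55 within the stratum. S100a9 stood at 111510 CPM in YUMMER1.7, 137930 in YUMM1.7 and 90253 in naive members, at log2 ratios over naive of 0.31 and 0.61.

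Tertiary granule and mature neutrophil genes were lower in YUMMER1.7 members than in naive members, with a median log2 ratio of -0.56 against -0.06 over all genes, 0 of 17 at least 2-fold higher and 5 lower (29.4%, against 9.41% of all genes). Within the stratum with Retnlg the median was -0.51 against -0.33 over all genes, with 0 higher and 3 lower (17.6%, against 14.7%), so the count there was near that of all genes. Clec4d, a C-type lectin receptor, stood at 171 CPM in YUMMER1.7 and 301 in YUMM1.7 members, against 655 CPM in naive members. Its log2 ratios over naive were -1.94 (-2.12 to -1.75) and -1.12 (-1.44 to -0.81), and -1.61 and -1.02 within the stratum. Trem1, an activating receptor of neutrophils, stood at 242, 526 and 568 CPM, a log2 ratio of -1.23 (-1.41 to -1.06) in YUMMER1.7 and -0.11 (-0.37 to 0.14) in YUMM1.7 members. Il1b stood at 843, 1013 and 1574 CPM. Cxcr2, the receptor that draws neutrophils out of the marrow, stood at 213, 402 and 273 CPM, with log2 ratios of -0.35 and 0.56 in all members and 0.17 and 0.69 within the stratum. The YUMM1.7 list median was -0.06, with 0 of 16 higher and 3 lower (18.8%, against 18.9% of all genes).

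**Figure D4:**
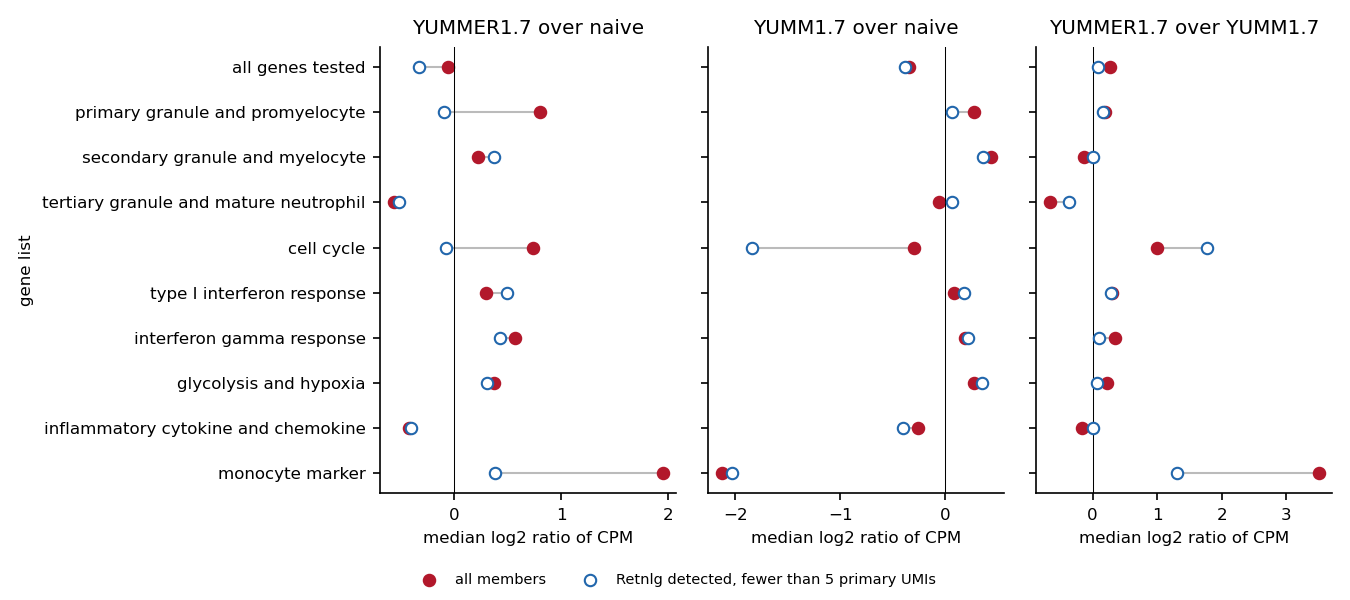
Median log2 ratio of CPM for 9 gene lists and for all genes tested, in 3 panels for YUMMER1.7 over naive, YUMM1.7 over naive and YUMMER1.7 over YUMM1.7; filled red points are all members and open blue points the members with Retnlg and fewer than 5 primary granule UMIs. In the first panel the primary granule, cell cycle and monocyte marker medians lie at 0.81, 0.74 and 1.95 in all members and at -0.09, -0.08 and 0.38 within the stratum, while the tertiary granule median lies at -0.56 and -0.51 and the all-gene median at -0.06 and -0.33.

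Proliferation genes differed between the arms in ways that depended on the cells compared, as the plot of list medians shows. Of 26 cell cycle genes 8 were at least 2-fold higher in YUMMER1.7 than naive members (30.8%, against 10.1% of all genes) and 0 lower, with a median of 0.74. Within the stratum with Retnlg 1 of 24 was higher (4.17%, against 4.11%), 0 lower, and the median was -0.08. In YUMM1.7 over naive members 0 of 19 were higher and 3 lower (15.8%, against 18.9% of all genes, median -0.30). Within the stratum 0 of 17 were higher and 13 lower (76.5%, against 22.3%, median -1.84). The same few cells can carry many of these genes, so the genes are not separate observations. Mitotic shares in that stratum, 0 of 30 YUMM1.7 and 7 of 77 naive members, had overlapping intervals (0% to 11.6% and 3.73% to 17.8%). In YUMMER1.7 over YUMM1.7 members 12 of 26 were higher (46.2%, against 21.5% of all genes, median 0.99), and within the stratum 15 of 21 (71.4%, against 13.1%, median 1.78). Top2a had 610 UMIs in 36 YUMMER1.7, 25 in 4 YUMM1.7 and 190 in 11 naive members. The members summed to 2684519, 338622 and 825660 UMIs, so its level was similar in YUMMER1.7 and naive members and lower in YUMM1.7 members. Ccnb2 (cyclin B2) had 160, 7 and 15 UMIs, at a log2 ratio of 1.71 (0.95 to 2.58) for YUMMER1.7 over naive and 1.80 (0.73 to 3.07) within the stratum.

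Among 14 granulopoiesis transcription factors, 11 were measured between YUMMER1.7 and naive members, of which 1 was at least 2-fold higher (9.09%, against 10.1% of all genes) and 0 lower. Cebpe stood at 206 CPM in YUMMER1.7, 121 in YUMM1.7 and 156 in naive members, with log2 ratios over naive of 0.40 (0.12 to 0.68) and -0.37 (-0.91 to 0.15). Spi1, which encodes PU.1, stood at 492, 449 and 357 CPM. Runx1, a regulator of early haematopoiesis, was lower in both tumour arms, at log2 ratios of -0.68 (-0.86 to -0.51) and -1.12 (-1.49 to -0.76). Irf8 and Klf4, which direct monocyte fate, had 180 and 134 UMIs in YUMMER1.7, 4 and 1 in YUMM1.7, and 43 and 34 in naive members. Those counts are out of 2684519, 338622 and 825660 UMIs, so most of the gap between the YUMMER1.7 and naive counts lies in the totals. Gfi1, a repressor needed for neutrophil fate, stood at 5.59, 8.86 and 4.84 CPM, and was detected too rarely to compare.

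Beside all-gene medians of -0.06 in YUMMER1.7 and -0.35 in YUMM1.7 members, interferon-response lists leaned higher over naive in both tumour arms. Of 23 type I interferon genes measured, 5 were at least 2-fold higher than in naive members (21.7%, against 10.1% of all genes) and 1 lower (median 0.30). Within the stratum with Retnlg 5 were higher (21.7%, against 4.11%) and 1 lower (median 0.50). Ifi27l2a stood at 729 CPM in YUMMER1.7 and 626 in YUMM1.7 members, against 289 CPM in naive members, at log2 ratios of 1.33 (1.14 to 1.53) and 1.11 (0.84 to 1.39). In all other kept cells it stood at 980 and 799 against 312 CPM, so this order of the arms was not particular to members. Ifitm3, which blocks virus entry, stood at 2298 and 1456 against 941 CPM, at 1.29 (1.18 to 1.40) and 0.63 (0.46 to 0.79). Irf7, the amplifier of the type I response, stood at 1.03 (0.52 to 1.59) and -0.14 (-1.19 to 0.81). In YUMM1.7 members 2 of 21 type I genes were higher (9.52%, against 1.49% of all genes) and 3 lower (14.3%, against 18.9%), with a median of 0.09. Of 17 genes of the interferon gamma response 3 were higher in YUMMER1.7 (17.6%, against 10.1% of all genes) and 0 lower (median 0.57). Within the stratum 2 were higher (11.8%, against 4.11%) and 1 lower (median 0.43). Of 10 in YUMM1.7 members 2 were higher (20%, against 1.49%) and 1 lower (10%, against 18.9%), with a median of 0.19.

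Glycolytic and oxidase genes mostly differed by less than 2-fold. Of 16 glycolysis and hypoxia genes 1 was at least 2-fold higher in YUMMER1.7 than naive members (6.25%, against 10.1% of all genes) and 0 lower (against 9.41%). The median was 0.38 against -0.06 over all genes, or 0.31 against -0.33 within the stratum. Of 14 in YUMM1.7 members none passed 2-fold, against 1.49% of all genes higher and 18.9% lower. The median there was 0.28 against -0.35 over all genes. Gapdh stood at 1244 and 1037 CPM in YUMMER1.7 and YUMM1.7 members, against 699 CPM in naive members. Of the 6 subunits of the NADPH oxidase, the complex behind the respiratory burst, none passed 2-fold in either tumour arm over naive. Among all genes 10.1% were higher and 9.41% lower in YUMMER1.7, and 1.49% and 18.9% in YUMM1.7 members. Cyba stood at 0.79 (0.69 to 0.90) and 0.55 (0.38 to 0.71), and Cybb, its partner in the membrane, at -0.51 (-0.59 to -0.42) and -0.23 (-0.37 to -0.09).

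By their median, inflammatory genes were lower in YUMMER1.7 members as a whole and close to all genes within the stratum with Retnlg. Of 14 cytokine and chemokine genes 2 were at least 2-fold higher in YUMMER1.7 than naive members (14.3%, against 10.1% of all genes). In the other direction 5 were lower (35.7%, against 9.41%), and the median was -0.42. Within the stratum 2 were higher (14.3%, against 4.11% of all genes) and 3 lower (21.4%, against 14.7%). The median there was -0.40 against -0.33 over all genes. Of 11 in YUMM1.7 members 0 were higher and 2 lower (18.2%, against 18.9% of all genes), with a median of -0.26 against -0.35 over all genes. Tnfaip3, a brake on NF-kB signalling, stood at 92.4 and 103 CPM in YUMMER1.7 and YUMM1.7 members, against 302 CPM in naive members, and Il1rn, the interleukin 1 receptor antagonist, at 27.2 and 50.2 against 92.1 CPM. Egr1 stood at 72.3 and 94.5 against 338 CPM and Dusp1 at 364 and 369 against 793 CPM. Both belong to a list of genes induced by tissue digestion. Of 17 measured, 3 were higher (17.6%, against 10.1% of all genes) and 2 lower (11.8%, against 9.41%) in YUMMER1.7 members (median -0.05). Of 15 in YUMM1.7 members 0 were higher and 5 lower (33.3%, against 18.9%), with a median of -0.56. The part of digestion in these differences was not tested. Hspa1a and Hspa1b, near-identical heat shock genes whose reads may be shared, had 170 and 159 UMIs in YUMMER1.7, 3 and 4 in YUMM1.7, and 2 and 9 in naive members.

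A fixed rule on the interval bound nearest 0 named 4 genes per direction and comparison. Higher in YUMMER1.7 than naive members were Ifitm1 at 492 against 113 CPM (log2 2.13, 1.82 to 2.45), Wfdc17 at 569 against 167 CPM (1.77, 1.52 to 2.03), Dbi at 248 against 63.0 CPM (1.98, 1.57 to 2.42) and Ms4a6c at 318 against 82.4 CPM (1.95, 1.59 to 2.33). Within the stratum with Retnlg, Ifitm1 stood at 2.52 and Wfdc17 at 1.77, while Dbi stood at 0.29 and the monocyte marker Ms4a6c at 0.43. Lower in YUMMER1.7 were Oscp1, Homer1, Ankrd13c and Satb1, at log2 ratios of -3.35 to -2.77, or -2.94 to -2.53 within the stratum. Homer1, a synaptic scaffold protein by its best-known role, had 93.9 CPM in YUMMER1.7 and 186 CPM in YUMM1.7 members, against 698 CPM in naive members. Satb1, a chromatin organiser, had 29.0 and 76.8 against 205 CPM. In all other kept cells these 4 genes were also lower in both tumour libraries than in the naive one, so that direction was not particular to members. There Homer1 stood at 61.5 and 73.0 against 167 CPM and Satb1 at 146 and 141 against 329 CPM. The 4 genes higher in YUMMER1.7 members were also higher in its other kept cells than in those of the naive library, with Wfdc17 at 452 against 152 CPM.

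Higher in YUMM1.7 than naive members by the same rule were Ifi27l2a, Ech1 (a peroxisomal and mitochondrial lipid enzyme, log2 1.56, 0.81 to 2.32), Ceacam10 (1.23, at 77 against 80 UMIs) and Ifitm2 (0.96, 0.77 to 1.15). Lower were Hivep2, with 1 UMI in YUMM1.7 against 113 in naive members (log2 -5.53, -10.85 to -3.03), Abca1 with 1 against 67 (-4.78, -10.11 to -2.25), Jmy with 2 against 84 (-4.11, -7.18 to -2.21) and Tgif1 with 0 against 71 UMIs. Tgif1 was at least 9.71-fold lower in YUMM1.7 members. All 4 were also lower in the other kept cells of the YUMM1.7 library than in those of the naive one, by less, with Hivep2 at 127 against 238 CPM. Between the tumour arms, Plcb1 had 570 UMIs in YUMMER1.7 and 0 in YUMM1.7 members (log2 ratio at least 4.58), Ahnak 321 and 1 (5.34, 2.85 to 10.65), Ccr2 394 and 2 (4.64, 2.77 to 7.69), and S100a10 692 and 8 (3.45, 2.46 to 4.67). These 4 lead the primary-dominant cells too, and within the stratum with Retnlg Plcb1 had 18 UMIs in YUMMER1.7 and 0 in YUMM1.7 members, too few to compare, and the log2 ratios were 2.15 for Ahnak, 1.41 for Ccr2 and -0.46 for S100a10. Lower in YUMMER1.7 than YUMM1.7 were Nt5e (-2.18), Oscp1 (-2.12), Slc7a11, the cystine transporter (-1.66), and Antxr2 (-1.50), and within the stratum these ran from -1.92 to -1.18.

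Markers of other cell types were counted in the members. At least 5 UMIs of any of 13 marker lists of other lineages were found in 43 of 174 YUMMER1.7, 3 of 33 YUMM1.7 and 19 of 83 naive members. In YUMMER1.7 these were all 23 primary-dominant cells, 3 of 14 mixed cells, 2 of 8 members without Retnlg and 15 of 129 with it. The 3 mixed cells passed on the plasma cell list alone and by Xbp1 alone, since its other 4 genes (Jchain, Sdc1, Mzb1 and Tnfrsf17) were at 0. The 5 monocyte markers summed to 919 CPM in YUMMER1.7, 70.9 in YUMM1.7 and 249 CPM in naive members, against 1434, 1491 and 782 CPM in all kept cells, and all 5 were at least 2-fold higher in YUMMER1.7 than naive members. In the stratum with Retnlg the sums were 220, 81.1 and 266 CPM. The 5 macrophage markers summed to 356, 56.1 and 153 CPM, with 511 of the 956 YUMMER1.7 UMIs in 1 cell. T cell markers summed to 11.5, 8.86 and 124 CPM. No doublet caller was run. Without the members at that limit, the mixed cells with Xbp1 among them, 311 genes in place of 853 were at least 2-fold higher in YUMMER1.7 than naive members. The part of those markers in single-gene differences was otherwise not tested.

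Beside the mature neutrophils of the same library, members were higher in the same early genes in all 3 libraries, which is a description since the rule chose for immaturity. The 10 genes with the largest smallest ratio were Itgb2l, Cebpe, Serpinb1a, Erg, Chil3, Cd177, Adpgk, Olfml2b, Ica1 and Lcn2. Cd177, a surface glycoprotein of neutrophils, stood at 687 against 42.0 CPM in the YUMMER1.7, 995 against 24.5 in the YUMM1.7 and 723 against 32.9 CPM in the naive library. Chil3, a chitinase-like protein, stood at 3204 against 193, 3095 against 122 and 3233 against 17.6 CPM. Erg, a transcription factor of haematopoietic stem cells and endothelium, stood at 71.5 against 4.16, 115 against 4.74 and 134 against 4.75 CPM.

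**Figure D5:**
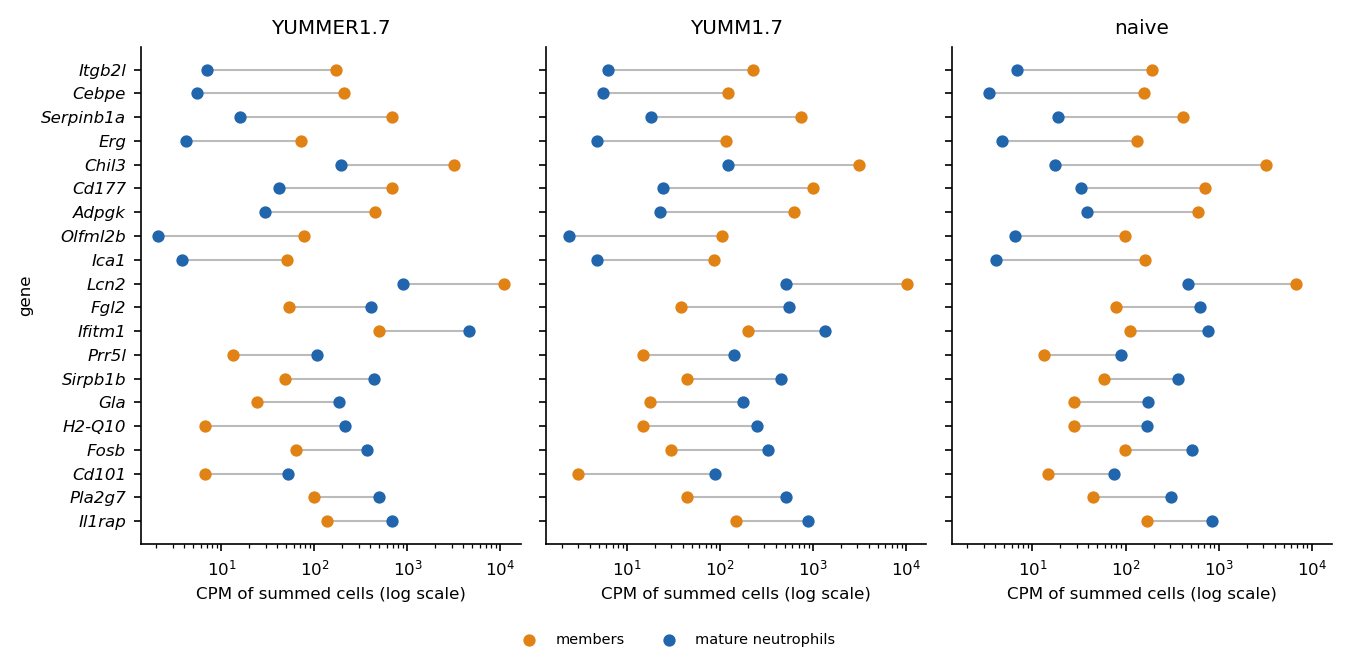
CPM of summed cells on a log axis for members (orange) and mature neutrophils (blue) of each library, for the 10 genes highest and the 10 lowest in members by the smallest ratio over the 3 libraries. The members' points lie to the right for the upper 10 genes and to the left for the lower 10 in every library, and Chil3 in mature neutrophils is lower in the naive library, at 17.6 CPM, than in the YUMMER1.7 library, at 193 CPM.

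The plot of members beside mature neutrophils gives the 10 lowest genes too, namely Fgl2, Ifitm1, Prr5l, Sirpb1b, Gla, H2-Q10, Fosb, Cd101, Pla2g7 and Il1rap. Cd101, a marker of fully mature mouse neutrophils, stood at 6.71 against 51.6 CPM in the YUMMER1.7, 2.95 against 89.2 in the YUMM1.7 and 14.5 against 74.6 CPM in the naive library. Ifitm1 stood at 492 against 4534, 201 against 1343 and 113 against 780 CPM, so the order of the arms was the same in members and in mature neutrophils. H2-Q10 is one of several near-identical class I genes, so its reads may come from its neighbours.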

How the data were processed

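Droplet 3' libraries (Chromium GEM-X Single Cell 3' v4, per the labels' protocols) of 3 arms were deposited by the authors as raw UMI count matrices, aligned with Cell Ranger 8.0.1 to mm10 per the submitters' processing notes. The file headers name 8.0.1 for the enriched matrices (32285 features) and 7.0.0 for the depleted ones (54752 features). The enriched libraries held 7144 (YUMMER1.7), 7806 (YUMM1.7) and 11372 (naive) barcodes and 78551522, 78305030 and 86471908 UMIs.

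Counts were summed over members per library and given as CPM with exact Poisson intervals, and ratios with exact conditional binomial intervals (scipy 1.17.1, numpy 2.4.6, pandas 2.3.3, matplotlib 3.10.9, Python 3.11.15). Shares have Clopper-Pearson intervals. All cover counting error only. No doublet caller was run. Mitotic and detection shares used cells thinned to 2000 UMIs. Ratios needed 20 UMIs over both libraries. The ratio code was tested on simulated data. Named genes were the 4 per comparison and direction with the interval bound farthest from 0, with at least 20 UMIs, 50 CPM and detection in 20% of members of the higher library, beside the list genes and the 10 highest and lowest against mature neutrophils. The members, gene lists and tests were chosen with earlier results of these data known. Gene positions follow GENCODE (32235 of 32285 features placed). Alternatives changed cell filters, the rule, scaling and gene filters, and their effects are given at the end.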

Additional observations from a re-analysis of the deposited data

Results flagged for a closer look

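The member share moved in opposite directions in the tumour arms against the same naive library, with log2 ratios of 1.69 in YUMMER1.7 and -0.84 in YUMM1.7 nodes. The median over cell cycle genes was 0.74 in YUMMER1.7 and -0.30 in YUMM1.7 members, and that over the monocyte markers was 1.95 and -2.13. With 1 library per arm the differences between these effects were not tested.

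The depleted fraction, which no comparison uses, also held cells that meet the rule, namely 8 of 6881 kept cells in YUMMER1.7, 3 of 8680 in YUMM1.7 and 1 of 12977 in naive nodes. Of the 8 YUMMER1.7 cells, 1 had 1562 UMIs of Elane, 1064 of Prtn3, 272 of Mpo and 741 of Ctsg with no Ngp, Camp or Ltf. Another had 959 UMIs of Ngp and 1968 of Camp with 1 of Elane. The naive cell had 306 UMIs of Elane and 423 of Camp, so a cell with both granule programmes was present in naive nodes outside the enriched fraction. The YUMM1.7 cells had 1, 9 and 3 UMIs of Elane. Those with 1 and 9 had 10 and 16 UMIs of Prtn3 and none of Ngp, Camp or Ltf. Primary UMIs thus outnumbered secondary ones in them, and the monocyte marker Ms4a6c had 29 and 61 UMIs.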

How the results depend on the processing

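Of the main results under the alternatives, 404 values stayed close, 67 moved and 13 turned direction, and of the named genes' ratios 323 stayed close, 63 moved and 8 turned. A count stayed close within 1.5 times, a share, share ratio or gene ratio within its own 95% interval, and a list median within the median interval half-width of its genes. Medians below are of log2 ratios over gene lists, single genes are given as log2 ratios, and counts are of genes at least 2-fold higher or lower. With Retnlg at 0 in every member, YUMMER1.7 over naive had a log2 share ratio of 3.39, a primary granule median of -0.11, a secondary granule median of -2.01, a tertiary granule median of 0.72, a cell cycle median of -0.65, an inflammatory median of 0.51, a monocyte marker median of 3.22, Lcn2 at -1.99, Ctsg at -0.11, Cebpe at -1.50 and Fcnb at -1.63. YUMM1.7 over naive then had a log2 share ratio of -1.83, 133 genes lower, a primary granule median of 0.88, a secondary granule median of 0.036, a cell cycle median of -1.37 and an inflammatory median of -1.40. Under it YUMMER1.7 over YUMM1.7 had a log2 share ratio of 5.22, 463 genes higher, 2087 genes lower, a primary granule median of -1.72, a secondary granule median of -2.10 and a cell cycle median of -0.63. For YUMMER1.7 it gave 67.6% primary-dominant members and 29.0% mitotic members. YUMM1.7 then had 0% mitotic members. Under it naive had 50% mitotic members. Only a single YUMM1.7 member and 5 naive members met that rule, so all its values for those arms rest on very few cells. As a share of neutrophils without primary-dominant cells, added after seeing the data, YUMMER1.7 over naive had a log2 share ratio of 1.16. YUMM1.7 over naive then had a log2 share ratio of -0.22. Under it YUMMER1.7 over YUMM1.7 had a log2 share ratio of 1.38. As a share of neutrophils, YUMM1.7 over naive had a log2 share ratio of -0.22. YUMMER1.7 over YUMM1.7 then had a log2 share ratio of 1.52. With rule genes summing to at least 10, YUMMER1.7 had 6.08% primary-dominant members. For YUMMER1.7 over naive it gave 539 genes higher, an inflammatory median of -0.93 and a monocyte marker median of 1.16. YUMMER1.7 over YUMM1.7 then had a secondary granule median of 0.088. With at least 3 rule genes detected, YUMMER1.7 had 5.71% primary-dominant members. For YUMMER1.7 over naive it gave 513 genes higher and a monocyte marker median of 1.15. YUMMER1.7 over YUMM1.7 then had a secondary granule median of 0.081. Without members with 5 UMIs of another lineage, YUMMER1.7 had 0% primary-dominant members. For YUMMER1.7 over naive it gave 311 genes higher and Ms4a6c at -0.87. YUMM1.7 over naive then had 521 genes lower and a secondary granule median of 0.19. Under it YUMMER1.7 over YUMM1.7 had 622 genes higher and a secondary granule median of 0.091. Unthinned, YUMMER1.7 had 28.2% mitotic members. With members thinned to 2000 UMIs, YUMMER1.7 over naive had 264 genes higher, 385 genes lower and a secondary granule median of 0.40. Under it YUMM1.7 over naive had 40 genes higher and 243 genes lower. For YUMMER1.7 over YUMM1.7 it gave 408 genes higher and 142 genes lower. For genes with at least 50 UMIs, YUMMER1.7 over naive had 444 genes higher and 462 genes lower. Under it YUMM1.7 over naive had 19 genes higher and 412 genes lower. For YUMMER1.7 over YUMM1.7 it gave 1076 genes higher and 117 genes lower. Without primary-dominant cells, YUMMER1.7 over naive had 414 genes higher and a monocyte marker median of 0.35. Under it YUMMER1.7 over YUMM1.7 had 938 genes higher and a secondary granule median of 0.093. Within the stratum with Retnlg, added after seeing the data, YUMMER1.7 over naive had 294 genes higher, a primary granule median of -0.091, a secondary granule median of 0.37, a cell cycle median of -0.078, a monocyte marker median of 0.38, Ms4a3 at -0.57 and Fcnb at -0.29. YUMM1.7 over naive then had a cell cycle median of -1.84. Under it YUMMER1.7 over YUMM1.7 had 814 genes higher, a secondary granule median of 0.0051, a tertiary granule median of -0.36 and S100a10 at -0.46. Under median-of-ratios scaling, YUMMER1.7 over naive had 518 genes lower and a secondary granule median of 0.43. YUMM1.7 over naive then had 149 genes higher. For genes with at least 1 UMI, YUMMER1.7 over naive had 1567 genes lower. For YUMM1.7 over naive it gave 341 genes higher and 1998 genes lower. YUMMER1.7 over YUMM1.7 then had 1934 genes lower. Scaled without rule genes, S100a8 and S100a9, YUMM1.7 over naive had 163 genes higher and a secondary granule median of 0.63. By mean CPM per cell, YUMM1.7 over naive had 126 genes higher. A higher UMI minimum, a lower mitochondrial limit of 5% and nonlymphoid cells as the base moved none of the main results past these limits. Fewer cells or genes enter under the stricter rules and gene minimums, and otherwise the cause was not tested. Among the enriched libraries primary-dominant cells occurred in YUMMER1.7 only, so no comparison of arms within them could be made. No paired analysis was possible because each arm is 1 pooled library and no test was run. The 33 YUMM1.7 members, with 338622 UMIs, limit both comparisons that use them.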
